A study of Mus musculus with 6 samples.

Results

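The S100 calcium-binding proteins measured here were chosen by gene symbol, from a list of 8 family members, and 7 of the 8 were found among the 16978 genes of the expression table. These were S100a1, S100a4, S100a6, S100a8, S100a10, S100a11 and S100a13. S100a9 was not analysed here. Bulk RNAseq was done on bone marrow-derived macrophages (BMDM) of wild type C57BL/6 mice, with 6 libraries in all. Bone marrow from the femur was cultured with 25 ng/ml murine M-CSF, the growth factor that turns marrow progenitors into macrophages, and cells were collected on day 7 and then treated. The IL17B group received 200 ng/ml IL17B for 6 hours (3 samples), and the control group received PBS (3 samples). Both groups had the same M-CSF culture and the labels name no other stimulus. The methods give female mice of 6 to 8 weeks for the C57BL/6 mice bought for the study, without naming the marrow donors, and no source used here says whether the 3 samples of a group came from separate mice or cultures. The p-values given here thus rest on the variation among these 6 libraries alone, and part or all of it may be technical.

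S100 proteins are small calcium sensors. Each chain carries a pair of EF-hand motifs, and the chains pair with each other and change shape on binding calcium, which opens a surface for partner proteins. Inside the cell they bind annexins, myosins and cytoskeletal proteins. Outside the cell some act as alarmins, signals of damage that activate receptors such as TLR4 and RAGE. S100A8 forms calprotectin together with S100A9, and this complex is abundant in neutrophils and in monocytes and is used as a stool marker of gut inflammation.

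The libraries held 20271411, 20593584 and 20493552 counts in IL17B replicates 1, 2 and 3 and 20653322, 20589565 and 20411273 counts in control replicates 1, 2 and 3. The labelled cell type was borne out by its markers, since all 21 macrophage markers of a list were detected in every library, with a summed level of 56262 to 61195 CPM (TMM-normalized counts, made relative to each library's size) in the IL17B libraries and 57129 to 58764 CPM in the control libraries. Other features of the libraries touch the results below. In IL17B replicates 2 and 3 all 25 hepatocyte markers of a list had a count, against 5 in IL17B replicate 1 and 7 to 8 in the control libraries. One of these markers, Trf, was at 408 to 540 CPM in each of the 6 libraries, and the other 24 summed to 294 CPM in IL17B replicate 2, 105 CPM in IL17B replicate 3, 1.13 CPM in IL17B replicate 1 and 1.36 to 1.60 CPM in the control libraries. Among ribosomal protein genes, 76 in number, the median level in control replicate 2 lay 0.16 below the mean of the 6 libraries on the log2 scale, and the medians of the other libraries lay between -0.02 and 0.08. Within a group, the median gene of at least 10 CPM had a coefficient of variation of 4.56% in the IL17B libraries and 4.83% in the control libraries.

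BMDM contained abundant transcripts of 6 of the 7 S100 genes. By TPM, a unit that takes transcript length into account and so allows genes to be compared, S100a4 was first with a mean over the 6 libraries of 1860 TPM. It was followed by S100a11 at 791 TPM, S100a6 at 444 TPM, S100a1 at 342 TPM, S100a10 at 254 TPM, S100a13 at 69.7 TPM and S100a8 at 3.64 TPM. S100a4 was between the 45th and the 72nd most abundant gene of the table in each library, and S100a11 between the 161st and the 202nd. In contrast, S100a8 stood between ranks 9305 and 10410. S100a4 alone made up 48.6% of the summed TPM of the 7 genes in IL17B-treated cells and 50.3% in control cells.

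**Figure D1:**
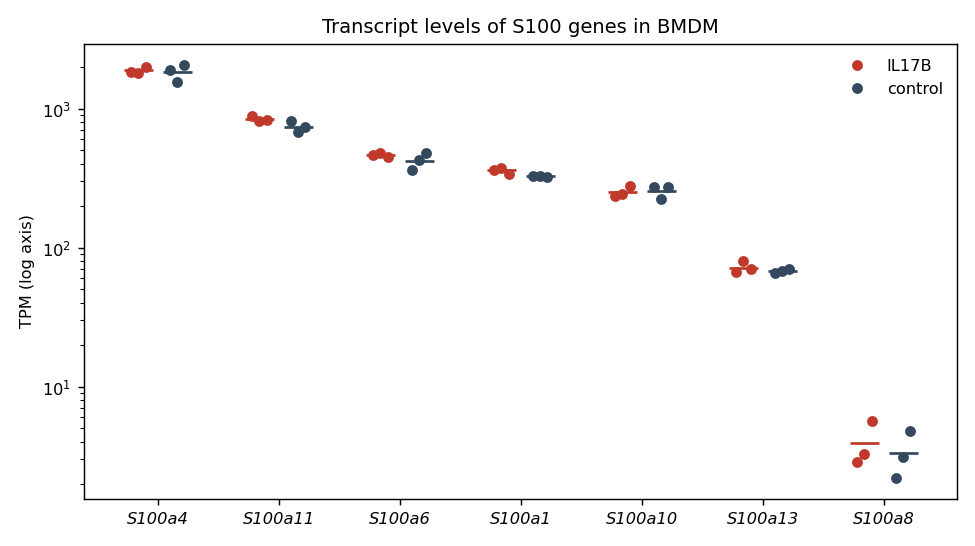
TPM of the 7 S100 genes (log axis) in each of the 3 IL17B libraries (red) and the 3 control libraries (dark blue), with a line at each group mean. The genes run from S100a4, at 1561 to 2070 TPM, down to S100a8, at 2.19 to 5.63 TPM, and the levels of the IL17B and control libraries lie close together for every gene.

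The order of these levels was the same in each of the 6 libraries. The lowest S100a4 library (1561 TPM) lay above the highest S100a11 library (881 TPM), and the lowest S100a11 library (676 TPM) above the highest S100a6 library (480.0 TPM). S100a6 and S100a1 were the neighbours whose ranges overlapped, with 364 TPM in the lowest S100a6 library and 374 TPM in the highest S100a1 library. S100a10 was at most 276 TPM and S100a13 at most 79.6 TPM. The step to S100a8 was the widest, with a mean 19.1-fold below that of S100a13.

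All 7 genes lie on chromosome 3 of the mouse genome (GRCm38.p6, RefSeq annotation matched by gene ID). S100a1, S100a13, S100a4, S100a6 and S100a8 fall within 159 kb, and S100a11 and S100a10 within 44.1 kb, 2850 kb further along. Levels did not follow this order. S100a4 (gene ID 20198, chr3:90603770-90606045) and S100a6 (gene ID 20200, chr3:90612894-90614414) are the abundant neighbours in the middle of the first stretch. S100a3, which lies next to S100a4, had 2 counts in 1 IL17B library and in 1 control library and 0 in the other 4. S100a14 and S100a16, between S100a13 and S100a3, were at no more than 1 and 12 counts per library.

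**Figure D2:**
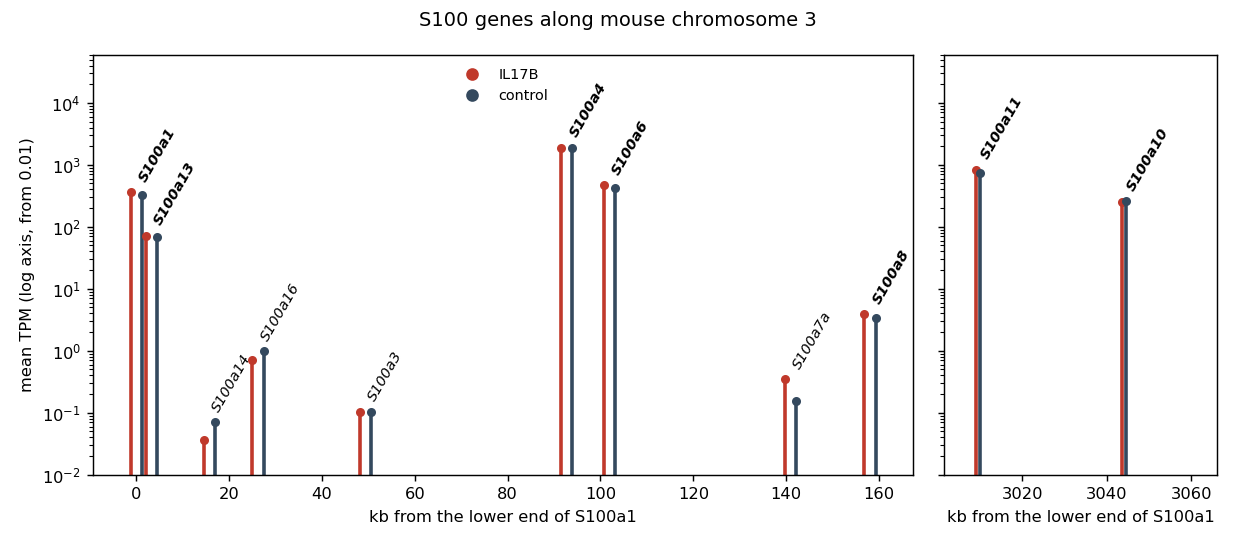
Mean TPM (log axis, from 0.01) of S100 genes along mouse chromosome 3 against the distance in kb from the lower end of S100a1, for IL17B (red, drawn to the left) and control (dark blue) groups of 3 libraries each. The 7 genes described here are in bold. S100a4 and S100a6 stand between the near-silent S100a3 and S100a7a, and S100a8 at the end of the first stretch is at 3.93 TPM with IL17B and 3.35 TPM in the control.

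S100a1 and S100a13 are head-to-head neighbours, read away from each other. Their RefSeq gene spans (chr3:90511034-90514330 on the minus strand and chr3:90514233-90524581 on the plus strand) overlap by 98 bases. No source used here says that the libraries kept strand, so reads from the overlap cannot be told apart. The start sites used for the RefSeq promoter windows lie 105 bases apart. The windows, each with 250 bases before the start and 50 after it, therefore share 204 bases. They are shown because both genes were highest in the same library, IL17B replicate 2, in which S100a6 was highest too. The shared bases are in capitals in the following 2 windows, each read 5′ to 3′ on its own gene's strand (S100a1 at chr3:90514281-90514580 minus, S100a13 at chr3:90514185-90514484 plus).
S100a1: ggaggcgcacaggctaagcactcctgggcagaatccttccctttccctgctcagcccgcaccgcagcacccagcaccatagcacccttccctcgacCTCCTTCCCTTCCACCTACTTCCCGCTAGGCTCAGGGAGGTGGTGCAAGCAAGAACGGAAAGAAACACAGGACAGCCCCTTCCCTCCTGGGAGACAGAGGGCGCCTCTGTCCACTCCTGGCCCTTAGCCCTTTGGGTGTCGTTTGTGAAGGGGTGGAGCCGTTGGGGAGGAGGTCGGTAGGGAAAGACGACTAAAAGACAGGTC
S100a13: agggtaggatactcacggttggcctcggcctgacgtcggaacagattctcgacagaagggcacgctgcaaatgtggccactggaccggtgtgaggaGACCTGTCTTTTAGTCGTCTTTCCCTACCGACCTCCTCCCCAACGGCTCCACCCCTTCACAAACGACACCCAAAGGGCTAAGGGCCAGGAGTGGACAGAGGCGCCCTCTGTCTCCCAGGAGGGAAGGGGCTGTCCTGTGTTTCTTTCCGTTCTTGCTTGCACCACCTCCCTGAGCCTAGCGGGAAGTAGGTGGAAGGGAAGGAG

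Of the 7 genes, 6 had such a window. The most abundant and the least abundant of them, S100a4 and S100a8, both had a TATA box (TATAAA, searched on both strands), 31 and 30 bases before the start. This motif stood in 13.6% of the 32851 windows of the genome, and none of the other 4 windows held it. The window of S100a11 held the AP-1 motif TGAGTCA at 2 positions, 136 and 38 bases before the start, and it held the GC box GGGCGG at 3 positions. TGAGTCA was found in 5.20% and GGGCGG in 35.7% of all windows on either strand. The C/EBP motif TTGCNNAA, present in 10.8% of all windows, was in none of the 6. These matches describe letters and not sites in use. The windows of S100a4 (chr3:90603520-90603819, plus), S100a8 (chr3:90668821-90669120, plus) and S100a11 (chr3:93520246-93520545, plus) are given with TATAAA or TGAGTCA in capitals. They set the highest and the lowest gene side by side with S100a11. By the edgeR test described below, S100a11 had an unadjusted p under 0.05 and an adjusted p of 0.941.
S100a4: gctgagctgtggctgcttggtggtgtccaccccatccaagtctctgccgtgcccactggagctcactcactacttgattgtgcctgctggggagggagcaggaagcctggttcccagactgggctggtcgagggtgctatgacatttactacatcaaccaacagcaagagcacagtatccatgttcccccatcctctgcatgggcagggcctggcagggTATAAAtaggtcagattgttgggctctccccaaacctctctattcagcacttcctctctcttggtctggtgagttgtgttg
S100a8: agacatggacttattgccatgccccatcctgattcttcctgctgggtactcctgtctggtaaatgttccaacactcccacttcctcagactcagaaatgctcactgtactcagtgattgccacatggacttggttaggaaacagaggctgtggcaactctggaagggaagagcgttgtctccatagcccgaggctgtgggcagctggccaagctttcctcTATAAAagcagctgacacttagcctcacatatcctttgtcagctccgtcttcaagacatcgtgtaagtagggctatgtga
S100a11: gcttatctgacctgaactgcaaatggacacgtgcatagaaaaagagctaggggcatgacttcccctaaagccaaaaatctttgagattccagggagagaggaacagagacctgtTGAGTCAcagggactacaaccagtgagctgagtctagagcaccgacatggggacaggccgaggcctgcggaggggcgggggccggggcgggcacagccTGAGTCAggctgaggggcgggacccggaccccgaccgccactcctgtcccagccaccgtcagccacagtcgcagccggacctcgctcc

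To find whether 6 hours of IL17B changed S100 transcripts, the quasi-likelihood test of edgeR was run on the counts of the 13866 genes with at least 15 counts in all. All 7 S100 genes were tested. None passed an adjusted p of 0.05, nor did any of the 13866 genes (0%). An unadjusted p under 0.05 was found for 2 of the 7, S100a1 and S100a11, both higher with IL17B. Such a p was found for 5.24% of all genes tested, for 2.96% with IL17B higher and for 2.28% with IL17B lower. DESeq2 and limma-voom called none of the 7 either, and each gave 2 of the 7 an unadjusted p under 0.05. Of the 13866 genes, such a p was found for 312 by DESeq2 and for 587 by limma-voom. The count among the 7 was 0 by edgeR without IL17B replicate 1, without IL17B replicate 2 or without control replicate 2. It was 1 without IL17B replicate 3 or without control replicate 3, and 2 without control replicate 1. The median log2 fold change of the 7 genes was 0.13, against 0.0003 over all genes, and 6 of the 7 fold changes were above 0, as were 50.1% of all fold changes. These 7 values share the same 6 libraries and are not independent of each other.

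**Figure D3:**
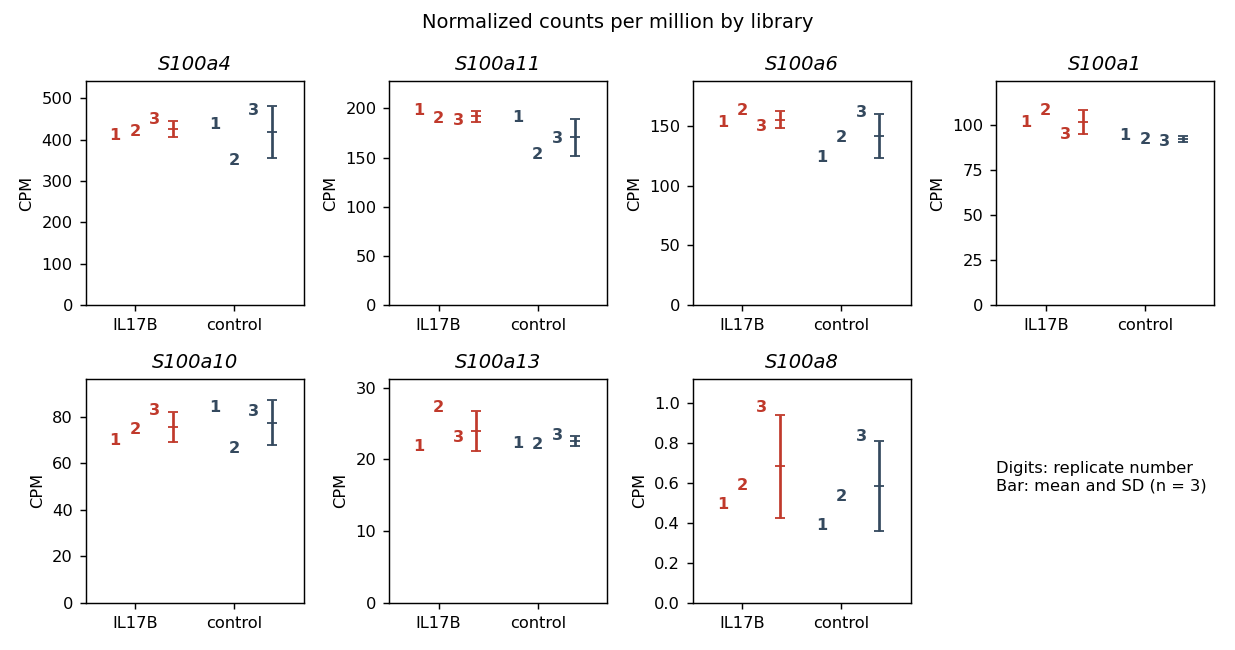
CPM of each S100 gene by library, with IL17B on the left (red) and control on the right (dark blue), where digits are replicate numbers and bars give the mean and SD of 3 libraries. S100a1 is the gene whose groups do not overlap, and control replicate 2 is the lowest library for S100a4, S100a10 and S100a11.

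S100a1 was the gene whose groups did not overlap. S100A1 is best known from heart muscle, where it binds the ryanodine receptor and the SERCA calcium pump. S100a1 (gene ID 20193) gave 2067, 2218 and 1949 counts in IL17B replicates 1, 2 and 3, against 1938, 1898 and 1855 counts in control replicates 1, 2 and 3. Each IL17B library was above each control library, in counts and in CPM, although the lowest IL17B library was close to the highest control library. Complete separation in CPM was seen for 9.92% of all genes tested, with IL17B higher for 5.16% and lower for 4.77%. The level was 102 ± 6.67 CPM with IL17B and 92.4 ± 1.71 CPM in the control (SD, n = 3 each), which is a log2 fold change of 0.14 (SE 0.05, 95% interval 0.02 to 0.26, adjusted p = 0.941 by edgeR). The interval corresponds to 1.01- to 1.19-fold. The groups were also apart in the deposited TPM values, at 364, 374 and 337 TPM with IL17B and 327, 330 and 319 TPM in the control. In TPM, 8.94% of all genes tested were apart, and 4.64% were apart with IL17B higher. Without IL17B replicate 2, the library with most counts of hepatocyte markers, the log2 fold change was 0.09. Without IL17B replicates 2 and 3 together, the libraries in which all hepatocyte markers had a count, it was 0.13, with 1 IL17B library left. The part of the hepatocyte transcripts in the S100a1 value was not tested further.

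S100a11 was the other gene with an unadjusted p under 0.05. S100A11 (calgizzarin) binds annexin A1 and takes part in the repair of the plasma membrane. S100a11 (gene ID 20195, chr3:93520496-93526288) was at 198, 190 and 187 CPM in IL17B replicates 1, 2 and 3, against 190, 153 and 169 CPM in control replicates 1, 2 and 3. The groups overlapped, since control replicate 1 was as high as the IL17B libraries. The level was 192 ± 5.48 CPM with IL17B and 171 ± 18.9 CPM in the control (SD, n = 3 each; log2 fold change 0.17, SE 0.07, 95% interval 0.01 to 0.33, adjusted p = 0.941 by edgeR). Without control replicate 2 the log2 fold change was 0.09, and without control replicate 1 it was 0.26. A pseudogene of S100a11 is annotated in RefSeq and was not analysed here. Whether some of its reads were counted for S100a11 was not tested. The estimated counts of all 7 S100 genes were whole numbers in each library, as were those of 58.4% of all genes.

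S100a6 encodes calcyclin, which binds CacyBP (calcyclin-binding protein). It was at 153, 163 and 150 CPM in IL17B replicates 1, 2 and 3, against 124, 140.0 and 161 CPM in control replicates 1, 2 and 3. The IL17B libraries were close together and the control libraries wide apart, with control replicate 3 among the highest and control replicate 1 the lowest of all. The log2 fold change was 0.13 (SE 0.08, 95% interval -0.05 to 0.32, adjusted p = 0.976 by edgeR). It was 0.05 without control replicate 1 and 0.24 without control replicate 3.

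S100a4, known as metastasin or FSP1, binds the heavy chain of non-muscle myosin IIA and is linked to cell movement. It was at 411, 419 and 447 CPM in IL17B replicates 1, 2 and 3, against 436, 349 and 471 CPM in control replicates 1, 2 and 3. Both the lowest and the highest of the 6 values were control libraries. The log2 fold change was 0.02 (SE 0.09, 95% interval -0.19 to 0.24, adjusted p = 0.998 by edgeR), which turned to -0.09 without control replicate 2 and to -0.01 without IL17B replicate 3.

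S100a10 (p11) is the family member whose EF-hands no longer bind calcium. In a complex with annexin A2 it forms a plasminogen receptor at the cell surface. S100a10 (gene ID 20194, chr3:93555117-93564645) was at 69.9, 74.3 and 82.6 CPM in IL17B replicates 1, 2 and 3, against 83.8, 66.2 and 82.2 CPM in control replicates 1, 2 and 3. It was the 1 gene of the 7 with a fold change under 0, at a log2 value of -0.03 (SE 0.09, 95% interval -0.24 to 0.17, adjusted p = 0.995 by edgeR). This sign turned when IL17B replicate 1, control replicate 1 or control replicate 3 was left out, with values of 0.02, 0.03 and 0.01.

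S100a13 takes part in the release of FGF1 and IL1A by cells, a route that bypasses the classical secretory pathway. It was at 21.8, 27.2 and 23.0 CPM in IL17B replicates 1, 2 and 3, against 22.2, 22.1 and 23.3 CPM in control replicates 1, 2 and 3. IL17B replicate 2 stood above the other 5 libraries, which lay close together. The log2 fold change was 0.09 (SE 0.09, 95% interval -0.10 to 0.28, adjusted p = 0.988 by edgeR), and -0.01 without IL17B replicate 2. S100a1, its head-to-head neighbour, was also highest in IL17B replicate 2, and so was S100a6. Over the 6 libraries, log2(CPM + 1) of S100a1 and S100a13 had a Pearson's r of 0.665 and a Spearman's rho of 0.0857. The 24 hepatocyte markers other than Trf also had their highest sum in IL17B replicate 2. The part of these transcripts in the S100a13 value was not tested.

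S100a8, the calprotectin chain measured here, was the least abundant of the 7 genes. Its counts were 10, 12 and 20 in IL17B replicates 1, 2 and 3, against 8, 11 and 17 in control replicates 1, 2 and 3. The values of the groups were interleaved. The level was 0.684 ± 0.257 CPM with IL17B and 0.585 ± 0.226 CPM in the control (SD, n = 3 each), and the log2 fold change was 0.22 (SE 0.42, adjusted p = 0.990 by edgeR). The 95% interval of the fold, 0.61 to 2.23, is wide and includes lower as well as higher levels with IL17B. The smallest difference detectable at these counts was not worked out. With 1 library left out, the log2 fold change ran from -0.12 without IL17B replicate 3 to 0.56 without control replicate 3, and it was 0.005 without control replicate 1.

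Of 9 defining markers of neutrophils 7 had values, and 5 of them were at or near 0 in the same libraries. Mpo, Elane and Ngp, which encode proteins of neutrophil granules, had 0 counts in each IL17B library and at most 2 counts in a control library. Camp had at most 3 counts and Ltf at most 2 counts in any library. Cxcr2, a chemokine receptor, and Mmp8, a collagenase, were the exceptions, with 59 to 74 and 263 to 291 counts in the IL17B libraries and 49 to 71 and 250 to 291 counts in the control libraries. The 18 genes with values of a wider list of 26 neutrophil markers summed to 216 to 242 CPM with IL17B and to 211 to 238 CPM in the control, and most of this was Csf3r, the receptor of G-CSF, at 199 ± 14.9 CPM and 191 ± 11.1 CPM. The 13 monocyte markers with values summed to 135 to 148 CPM with IL17B and 136 to 155 CPM in the control. In bulk RNA, fewer cells of a type and less RNA per cell cannot be told apart.

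**Figure D4:**
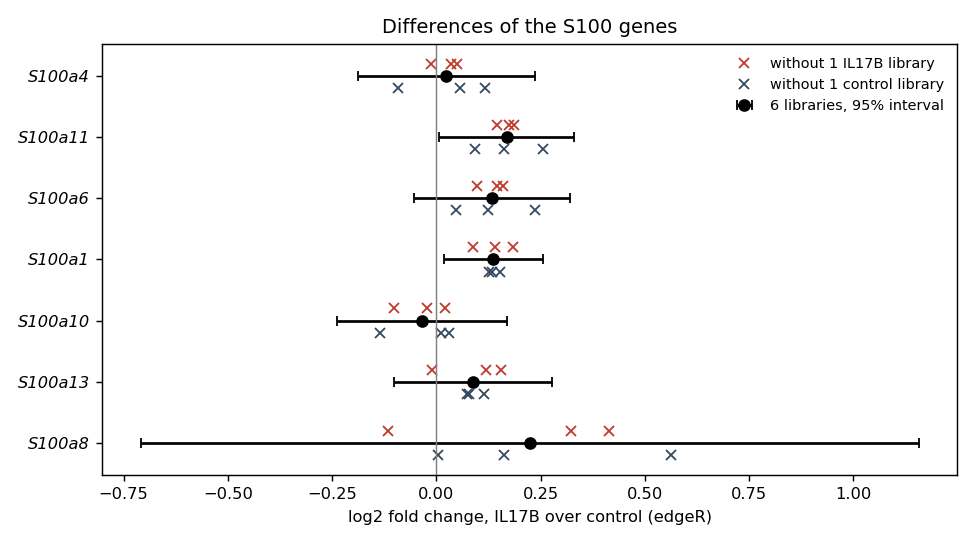
Log2 fold change of IL17B over control for each S100 gene by edgeR with its 95% interval (black), and the same value with 1 IL17B library (red crosses) or 1 control library (dark blue crosses) left out. The intervals of S100a1 and S100a11 lie just above 0, those of the other 5 genes span 0, and the value of S100a4 falls below 0 when control replicate 2 or IL17B replicate 3 is left out.

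Added up, the 7 genes reached 955, 983 and 986 CPM in IL17B replicates 1, 2 and 3, against 951, 823 and 998 CPM in control replicates 1, 2 and 3. Control replicate 2 was the lowest of the 6 libraries, and the other control libraries enclosed the 3 IL17B libraries. The mean was 975 ± 17.0 CPM with IL17B and 924 ± 90.8 CPM in the control (SD, n = 3 each). Without control replicate 2 the control mean was 974 CPM. In this library the 6 S100 genes of at least 10 CPM had a median 0.14 below the mean of the 6 libraries (log2 scale), beside the value of -0.16 for ribosomal protein genes. The 868 genes that are shortest by the length that the table implies had a median of -0.04 in it. What these values have to do with one another was not tested.

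The spread within groups differed from gene to gene. In the control, S100a4, S100a6, S100a10 and S100a11 had coefficients of variation of 14.97%, 13.2%, 12.6% and 11.1%, whereas S100a1 and S100a13 had 1.85% and 3.03%. In the IL17B libraries S100a11 varied least, at 2.86%, and S100a13 varied by 11.8%. S100a8, with 8 to 20 counts per library, varied by 37.5% with IL17B and by 38.6% in the control. The part of counting noise in these values was not tested.

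Further S100 genes gave few or no counts. S100a16, a widely expressed family member, gave 11, 7 and 4 counts in IL17B replicates 1, 2 and 3, against 11, 12 and 8 counts in the control libraries (log2 fold change -0.48 with an SE of 0.45, edgeR adjusted p = 0.988). S100a7a, the mouse relative of psoriasin, had 2 to 6 counts with IL17B and 2 to 4 counts in the control. S100b, a marker of Schwann cells and of glia, had 4, 0 and 4 counts with IL17B and 6, 3 and 1 counts in the control. S100g had 1 count in 1 control library. S100pbp, which is no S100 protein but is named for its binding of human S100P, was at 32.0 ± 1.45 CPM with IL17B and 30.9 ± 1.65 CPM in the control (SD, n = 3 each). Of the 4 genes tested in this list, edgeR called 0, and 0 had an unadjusted p under 0.05.

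Partners of S100 proteins inside the cell ranged widely in level, and none was called. Of 32 tested partners and targets edgeR called 0, and 0 had an unadjusted p under 0.05 (median log2 fold change -0.02). Sugt1, a co-chaperone gene, was among the partners whose groups did not overlap in CPM, with IL17B higher, at a log2 fold change of 0.07. Its groups overlapped in TPM. Of the 32 partners and targets, 2 were apart in CPM, against 9.92% of all genes tested. Annexin A1, a partner of S100A11, was at 691 ± 61.4 CPM with IL17B and 714 ± 63.1 CPM in the control. Vim, which encodes vimentin, was at 1857 ± 102 CPM with IL17B and 1945 ± 136 CPM in the control, and Actb was at 4508 ± 253 CPM and 4609 ± 438 CPM (SD, n = 3 each).

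Some well-known partners of single S100 proteins were abundant in these cells and others were nearly absent. These genes were picked for their roles, after the values were at hand. Anxa2, the partner of S100A10, was at 586 TPM with IL17B and 570 TPM in the control, above S100a10 itself at 251 TPM and 257 TPM (log2 fold change of Anxa2 0.03 with an SE of 0.08, edgeR adjusted p = 0.993). Myh9, the myosin heavy chain bound by S100A4, was at 257 TPM with IL17B and 259 TPM in the control, and Cacybp, the partner of S100A6, was at 36.2 TPM and 37.5 TPM. For S100a1, the ryanodine receptor gene Ryr2 had 1 to 3 counts with IL17B and 1 count in each control library. The SERCA pump gene Atp2a2 was at 92.8 TPM with IL17B and 95.1 TPM in the control. Fgf1, released with S100A13, had 2, 6 and 3 counts in the IL17B libraries and 0, 0 and 5 counts in the control libraries.

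Of 23 receptors and extracellular partners tested, edgeR called 0, while 1 was higher and 1 lower at an unadjusted p under 0.05 (median log2 fold change 0.02). Plg, which encodes plasminogen, the ligand of the S100A10 complex, gave 0, 89 and 40 counts in IL17B replicates 1, 2 and 3 and 0 counts in each control library, the profile of the hepatocyte markers (adjusted p = 0.862 by edgeR). Mcam had 6, 6 and 4 counts with IL17B and 15, 9 and 15 counts in the control, so that the groups did not overlap (log2 fold change -1.26 with an SE of 0.42, edgeR adjusted p = 0.909). Itgam and Egfr were apart in CPM with IL17B higher, at log2 fold changes of 0.10 and 0.20, and the groups of Egfr overlapped in TPM. In all, 3 of the 23 were apart in CPM, against 9.92% of all genes tested. Lgals3, Cd68 and Cd14 were the most abundant genes of the list, with log2 fold changes of -0.09, -0.05 and -0.03. Tlr4, the receptor at which S100A8 acts as an alarmin, was at 160.1 ± 6.61 CPM with IL17B and 153 ± 7.89 CPM in the control. Ager, which encodes RAGE, had 24, 15 and 23 counts in the IL17B libraries and 22, 12 and 22 counts in the control libraries.

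Genes of the oxidase and arachidonate pathways to which calprotectin delivers its cargo showed 0 of 11 called and 0 with an unadjusted p under 0.05. Cybb, the catalytic subunit of the phagocyte oxidase, was at 1787 ± 63.1 CPM with IL17B and 1834 ± 101 CPM in the control (SD, n = 3 each). Cyba had a log2 fold change of -0.09, and Ncf1, apart with IL17B higher, one of 0.08. Ncf1 was the 1 gene of the 11 apart in CPM, against 9.92% of all genes tested. Alox5ap, which presents arachidonic acid to 5-lipoxygenase, was at 284 ± 9.09 CPM with IL17B and 275 ± 8.34 CPM in the control.

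Of 19 tested regulators of S100a8 and S100a9, edgeR called 0, and 1 was lower at an unadjusted p under 0.05. This was Cebpb, a C/EBP factor of myeloid cells, at 158 ± 10.2 CPM with IL17B and 181 ± 20.1 CPM in the control (log2 fold change -0.20 with an SE of 0.08, edgeR adjusted p = 0.941). Its groups overlapped. Cebpe, a factor of granulocyte maturation, was at 3, 7 and 5 counts with IL17B and 10, 11 and 7 counts in the control libraries. Its groups did not overlap in CPM, although IL17B replicate 2 and control replicate 3 both had 7 counts, at 0.342 and 0.343 CPM. The log2 fold change was -0.88 with an SE of 0.46 (edgeR adjusted p = 0.960). Cebpe was the 1 gene of the 19 apart in CPM, against 9.92% of all genes tested. Spi1, the gene of the myeloid factor PU.1, had a log2 fold change of -0.04.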

How the data were processed

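Gene expression was measured by bulk RNAseq in BMDM treated with IL17B or PBS, with 3 samples each. RNA was selected with oligo(dT) beads, copied with random hexamers and sequenced as single-end reads. Per the submitters' processing notes and the methods, the authors aligned filtered reads with HISAT2 2.0.4 to GRCm38 and with Bowtie2 2.2.5 to the coding gene set, and estimated expression per gene with RSEM 1.2.12. The deposited table holds RSEM estimated counts, FPKM and TPM for each library, and the authors' group means, which were not used.

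Estimated counts were rounded to whole numbers. The 13866 of 16978 genes whose counts summed to 15 or more were compared by edgeR 4.0.16 in R 4.3.3, with TMM normalization, the quasi-likelihood test, Benjamini-Hochberg adjustment over all these genes, a threshold of 0.05 and no block. Fold changes are IL17B over control. Standard errors come from the quasi-likelihood statistic, and intervals from its t distribution. TPM served to compare levels between genes. Alternatives were other scaling (library totals, DESeq2 size factors), the tests of DESeq2 1.42.0 and of limma-voom (limma 3.58.1, sample quality weights), limma on log2 FPKM plus 0.1 and on log2 TPM plus 0.1 or 1, filterByExpr, no filter, each library left out in turn, and a replicate block. The fits were first tested on simulated counts. With 3 samples a group the smallest p of an exact permutation test is 0.1, and none was used.

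The S100 genes and the gene lists were chosen with earlier results of these data known, so no p is given over a list. Genes named are the 7 S100 genes, other S100 genes, up to 4 genes with the smallest unadjusted p under 0.05 and the 3 with the highest TPM of each list, genes whose groups did not overlap, the most abundant neutrophil and monocyte markers, and the genes whose log2(CPM + 1) values correlated most with an S100 gene. Genes named for their roles were chosen after their values were seen. Promoter windows and gene positions come from RefSeq (GRCm38.p6). The result for 1 gene of a list is not reported here.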

Additional observations from a re-analysis of the deposited data

How the results depend on the processing

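None of the 7 S100 genes was called under any of the alternatives listed above, and the adjusted p of S100a1 and of S100a11 was at least 0.783 in all of them. A further fit, chosen after seeing the data, left out IL17B replicates 2 and 3 together. Its spread comes from the control libraries alone, the lone IL17B library is assumed to vary like them, and a lack of calls in it says little. The log2 fold changes of S100a1 (0.09 to 0.18), S100a6 (0.05 to 0.24) and S100a11 (0.09 to 0.26) kept their sign throughout. With 1 library left out, the log2 fold change ran from -0.0917 to 0.1168 for S100a4, from -0.1163 to 0.5626 for S100a8, from -0.1355 to 0.0293 for S100a10 and from -0.0109 to 0.1541 for S100a13, and the median of the 7 from 0.0571 to 0.1456. Without IL17B replicates 2 and 3 together it was -0.0295 for S100a4, -0.252 for S100a8, -0.0531 for S100a13 and -0.0295 for the median of the 7. The causes were not tested.

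The number of genes called higher over the whole table was 6 with DESeq2, 1 with limma on log2 FPKM plus 0.1 and 1 on log2 TPM plus 0.1, and 74 with the replicate block, which also called 2 lower. With 1 library left out it ran from 0 to 77 higher and from 0 to 9 lower, and all these calls came without IL17B replicate 1. No S100 gene was among these. Samples with the same replicate number did not deviate together, with correlations of -0.143, 0.0119 and -0.130 over genes. No sample correlated best with its own number. With 3 samples a group, these values cannot decide whether samples of the same number share a mouse or a culture. No source used here says that they do. For S100a8, counts of 8 to 20 per library limit what can be seen, and the intervals cover the spread of these samples only.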

Other observations

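Other alarmins and calcium sensors were measured in the same libraries. Of 11 tested alarmins outside the S100 family edgeR called 0, and 1 was lower at an unadjusted p under 0.05. This was Saa3, an acute-phase gene of macrophages, with 74, 64 and 58 counts in IL17B replicates 1, 2 and 3 and 78, 98 and 91 counts in control replicates 1, 2 and 3 (log2 fold change -0.44 with an SE of 0.15, edgeR adjusted p = 0.909). Il1a, released by the same route as FGF1, was also apart and lower, at 11, 11 and 10 counts in the IL17B libraries against 15 counts in each control library (log2 fold change -0.48 with an SE of 0.31, edgeR adjusted p = 0.976). Saa3 and Il1a were the 2 of the 11 alarmins apart in CPM, against 9.92% of all genes tested. Hmgb1 was at 146 ± 6.37 CPM with IL17B and 137 ± 11.9 CPM in the control (SD, n = 3 each). Of 30 other calcium-binding proteins of a list, most with EF-hands, edgeR called 0, and 0 had an unadjusted p under 0.05. Calr, the calcium store protein of the endoplasmic reticulum, was at 867 ± 10.6 CPM with IL17B and 993 ± 145 CPM in the control. Rcn2 and Actn4 were apart in CPM and lower, at log2 fold changes of -0.09 and -0.08. They were the 2 of the 30 that were apart, against 9.92% of all genes tested, and 4.77% with IL17B lower. Lcp1, which encodes the actin bundling protein L-plastin, was at 2273 ± 70.7 CPM with IL17B and 2231 ± 116 CPM in the control.

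Beyond the S100 genes, Vcan, a matrix proteoglycan made by monocytes, was the gene of the monocyte list whose groups were apart, at 466, 407 and 473 counts with IL17B and 284, 257 and 387 counts in the control (log2 fold change 0.54 with an SE of 0.14, edgeR adjusted p = 0.862). The 11 tested genes of that list had a median log2 fold change of 0.01, with 1 apart, against 9.92% of all genes tested. Hp, the other gene of the list with an unadjusted p under 0.05, encodes haptoglobin, which is made by the liver too, and had 17, 122 and 72 counts with IL17B and 18, 30 and 24 counts in the control. Of 19 tested fibroblast and stromal markers edgeR called 0, while 7 were lower at an unadjusted p under 0.05, against 2.28% of all genes tested, and the median log2 fold change of the 19 was -0.35. In CPM, 5 of the 19 were apart with IL17B lower and 1 with IL17B higher, against 4.77% and 5.16% of all genes tested. Counts of Igfbp5, one of the markers, were 160, 16 and 21 in the IL17B libraries and 187, 133 and 178 in the control libraries. Not all markers had this profile. Col1a1 had 282, 284 and 268 counts with IL17B and 358, 415 and 298 in the control. Bgn had 227, 264 and 294 counts with IL17B and 295, 516 and 287 in the control, and was highest in control replicate 2. The Schwann cell markers Sox10 (34, 2 and 0 counts with IL17B, and 46, 22 and 29 in the control) and Apod (81, 2 and 5 counts with IL17B, and 103, 60 and 76 in the control) were low in the same libraries, IL17B replicates 2 and 3, which held the hepatocyte transcripts. These genes were chosen after their values were seen.

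Genes whose levels followed those of an S100 gene across the 6 libraries were looked up among 8680 genes of at least 10 CPM. Likeness was measured by Pearson's r of log2(CPM + 1). The genes named are the best matches of all genes searched, over 6 libraries that all genes share, so the values are descriptions only. The profile of S100a1 was most like that of Ttc21b (r = 0.993), which was at 13.5, 14.6 and 12.8 CPM in IL17B replicates 1, 2 and 3 and 12.3, 12.2 and 11.8 CPM in control replicates 1, 2 and 3. S100a4 was followed by Pknox1 (r = 0.996), at 21.8, 21.9 and 23.0 CPM with IL17B and 22.4, 18.6 and 24.1 CPM in the control. For S100a6 the nearest gene was Deptor (r = 0.994), for S100a8 Zfp276 (r = 0.991), for S100a10 Alas1 (r = 0.995), for S100a11 Ermp1 (r = 0.986) and for S100a13 Slc8b1 (r = 0.975). Among the S100 genes themselves S100a4 and S100a10, which both were lowest in control replicate 2, were the pair most alike (r = 0.888, Spearman's rho 0.771).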
